A study of Mus musculus with 8 samples.

Results

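The genes described here are 10 members of the integrated stress response in the mouse heart, listed by name, with earlier results of these data known: the transcription factors Atf4, Atf5, Atf3, Ddit3, Cebpb, Cebpg and Myc, and the regulators or effectors Trib3, Nupr1 and Chac1. They are 10 of 50599 gene records in the expression files, and all 10 passed the filter on low counts. RNA was taken from whole hearts of 12-week-old male C57BL/6N mice in 2 groups of 4. The wildtype group carried loxP sites on both Lrpprc alleles without Cre, and the knockout group carried the same floxed alleles with a Cre that makes the knockout specific to heart and skeletal muscle (its driver is not given in the sources used here). LRPPRC is a mitochondrial RNA-binding protein that stabilizes mitochondrial mRNAs. Total RNA was depleted of cytoplasmic rRNA, primed with random hexamers and sequenced on an Illumina HiSeq.

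In the integrated stress response, kinases that sense different stresses phosphorylate the translation initiation factor eIF2, which lowers protein synthesis in general while the mRNA of ATF4 is translated more. ATF4 is a basic leucine zipper (bZIP) factor that binds as a dimer with C/EBP proteins to composite C/EBP-ATF response elements, and it activates genes of amino acid synthesis and transport, tRNA charging and further stress factors. Mitochondrial dysfunction in heart and muscle is a known setting in which this response is active.

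The composite element is shown in its promoter context because it is the sequence through which ATF4 and its C/EBP partners act. It was searched as TGATGNAA on both strands, from 250 bases before to 50 bases after each RefSeq start in build GRCm38.p6. Of the 10 genes, 9 had an entry, and the element lay in the windows of Atf3, Nupr1, Chac1 and Trib3, while 3.97% of 32851 promoters held it. The matches of Atf3 and Nupr1 both began 110 bases before the start, that of Chac1 began 193 bases before it, and that of Trib3 began 15 bases after it. The stretches of Atf3 (chr1:191183396-191183483, minus strand) and Chac1 (chr2:119351009-119351096, plus strand) are given 5′ to 3′ on the gene's strand, with the element in capitals and 40 bases on each side.
Atf3: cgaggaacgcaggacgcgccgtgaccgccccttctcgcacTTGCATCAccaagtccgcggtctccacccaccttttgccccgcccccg
Chac1: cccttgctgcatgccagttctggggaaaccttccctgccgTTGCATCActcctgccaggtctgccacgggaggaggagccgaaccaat
The 8 capital bases were the same in both, and Nupr1 held the same TTGCATCA at chr7:126625573-126625580 on the minus strand. The matches of Atf3 and Nupr1 lie inside the annotated spans of these genes, which are given below. With 40 bases on each side, the stretch of Nupr1 overlaps 2 annotated exon entries. An AP-1 site, TGANTCA, was found in the window of Ddit3, against 7.81% of all promoters, and an E-box, CACGTG, in that of Nupr1, against 7.15%. The cAMP response element TGACGTCA (1.79% of promoters) and the C/EBP site TTGCNNAA (10.8%) were found in none of the 9 genes' windows. A match is a description of letters and not evidence of binding.

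All 10 genes rose in the knockout hearts, by between 1.04 and 5.62 on the log2 scale, with a median of 2.65. The test was DESeq2 on all genes, with p-values adjusted over 19959 genes, and a call means an adjusted p under 0.05. Among all genes tested 33.7% were called, 18.2% higher and 15.5% lower, and their median log2 fold change was 0.01. For each of the 10 genes the lowest knockout library lay above the highest wildtype library, which was so for 16.7% of all genes. edgeR also called all 10 genes higher, as it did 22.7% of the 15792 genes it tested. In RNA from whole tissue, fewer cells of a type and less RNA per cell cannot be told apart. Each normalised count below is relative to the other genes of its library.

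**Figure D1:**
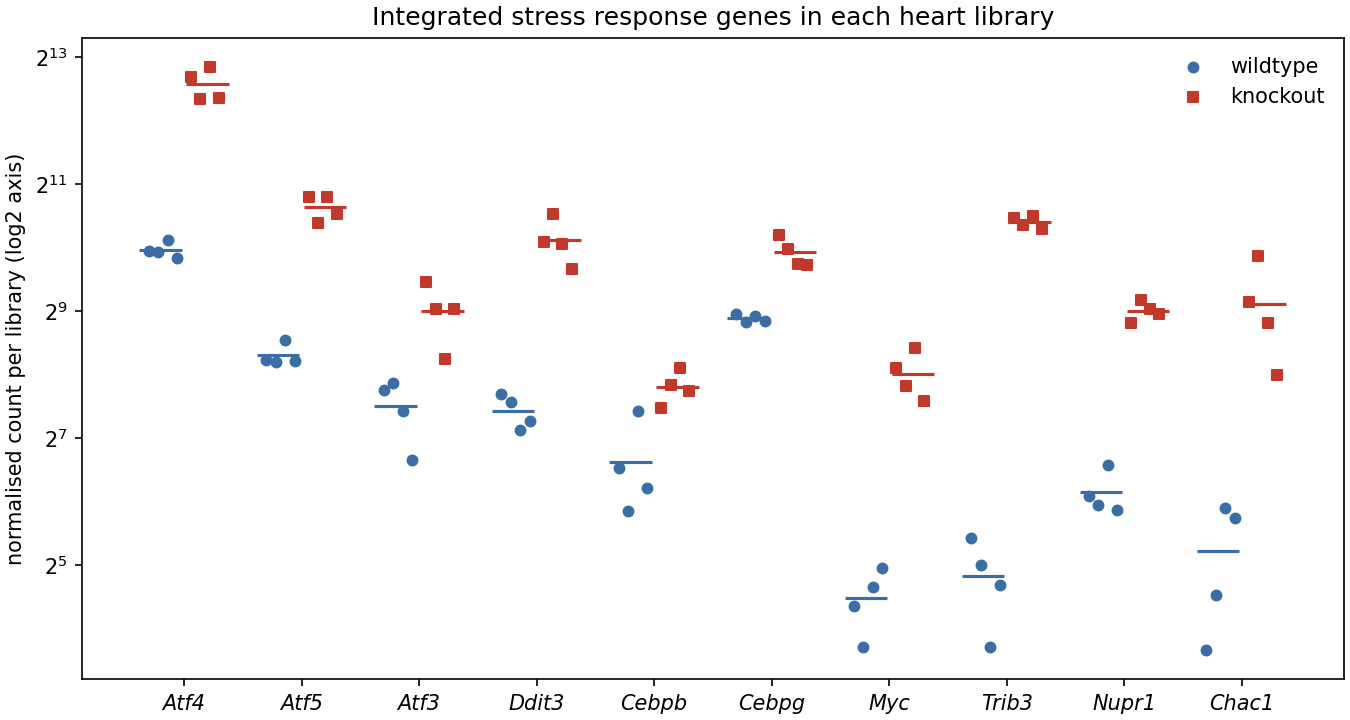
Normalised count of each gene (log2 axis) in the 4 wildtype libraries (blue circles) and 4 knockout libraries (red squares), drawn in replicate order, with a bar at each group mean. The groups do not overlap for any of the 10 genes, with the smallest gap in Cebpb (171.8 against 179 normalised counts) and the widest in Trib3 (43.2 against 1254.5).

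Atf4, the factor at the centre of the response, lies at chr15:80255184-80257541 (plus strand; all gene positions are GENCODE M21 on GRCm38). It had 991, 973, 1109 and 917 normalised counts in the wildtype libraries, and 6556, 5183, 7339 and 5256 in the knockout libraries (each time replicate 1 first). Every knockout library was at least 4.67 times the highest wildtype library. The log2 fold change was 2.61 (standard error 0.140; DESeq2 adjusted p = 9.20e-75), from 997 ± 80.8 to 6084 ± 1048 (SD, n = 4). Because ATF4 protein is set largely by translation, these mRNA values are not protein levels.

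Atf5 (chr7:44812256-44816658, minus strand), a close relative of Atf4 that is linked to the mitochondrial unfolded protein response, had 300.1, 294, 375 and 298 normalised counts in wildtype and 1779, 1335, 1784 and 1482 in knockout. Its log2 fold change was 2.33 (standard error 0.144; DESeq2 adjusted p = 8.71e-57). Knockout replicate 3 was the highest and replicate 2 the lowest for both genes. Its exons share 82 bases with each of Il4i1 and Nup62 on the opposite strand, and the authors counted reads by strand.

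Ddit3 (chr10:127290774-127296288, plus strand) encodes CHOP, the factor tied to cell death after prolonged stress. Its wildtype libraries had 206, 190.4, 141 and 154 normalised counts and its knockout libraries 1087, 1472, 1060 and 814. The lowest knockout library was 3.94 times the highest wildtype library, and the log2 fold change was 2.68 (standard error 0.201; DESeq2 adjusted p = 2.87e-38). In contrast to Atf4, knockout replicate 2 was here the highest. Of its 1713 exon bases 68 lie opposite Mars and 13 opposite Gm4189, and 105 lie on the same strand as a second Ddit3 record of GENCODE M21 that was not used here.

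Atf3 (chr1:191170296-191218039, minus strand), a stress-induced factor that mainly represses transcription, had a smaller difference than Atf4 in these estimates. It had 217, 234, 172 and 101 normalised counts in wildtype and 701, 523, 304 and 523 in knockout. The groups were apart by 1.30 times, the lowest knockout library being replicate 3. The log2 fold change was 1.503 (standard error 0.289; DESeq2 adjusted p = 2.10e-06), and 6.06% of all genes tested had a larger rise. Atf3 is also an immediate-early gene, and its highest knockout library, replicate 1, was also the highest knockout library for 18 of the 24 immediate-early genes listed. Their part in its value was not tested.

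The C/EBP factors, dimer partners of ATF4, had the 2 smallest log2 fold changes with all libraries. Without wildtype replicate 3 this order changed, Cebpb then standing at 1.58 and Atf3 at 1.48. Cebpg (chr7:35046422-35056573, minus strand) had 499, 452, 485 and 461 normalised counts in wildtype and 1178, 1009, 857 and 849 in knockout. These values did not overlap, with a log2 fold change of 1.04 (standard error 0.134; DESeq2 adjusted p = 2.51e-13). Of its 5621 exon bases 73 are shared on the same strand with Gm44836, so reads there are uncertain, and 4 lie opposite Gm45095. Cebpb (chr2:167688915-167690418, plus strand) had 92.2, 58.1, 172 and 74.7 normalised counts in wildtype and 179, 228, 274 and 215 in knockout. Wildtype replicate 3 came within 1.04 times of the lowest knockout library, so the groups were only just apart. Cebpb rose by 1.17 (standard error 0.308; DESeq2 adjusted p = 0.000780), and 312 of its 1504 exon bases lie opposite Tmem189. Cebpb is also expressed by macrophages, whose markers differed between the groups as given below.

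Myc (chr15:61985391-61990374, plus strand), a growth factor-responsive transcription factor outside the bZIP family, was low in wildtype hearts. It had 20.6, 13.1, 25.4 and 31.1 normalised counts in wildtype and 275, 227, 343 and 192 in knockout. The lowest knockout library was 6.16 times the highest wildtype library. The log2 fold change of 3.54 (standard error 0.286; DESeq2 adjusted p = 3.06e-33) was the largest estimate among the 7 transcription factors.

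Trib3 (chr2:152337422-152344032, minus strand), a pseudokinase that binds ATF4 and CHOP and dampens the response, had the largest log2 fold change of the 10 genes. It had 43.2, 32.2, 13.2 and 25.9 normalised counts in wildtype and 1418, 1305, 1449 and 1254.5 in knockout. The lowest knockout library was 29.0 times the highest wildtype library, and the knockout libraries differed among themselves by 1.155 times. The log2 fold change was 5.62 (standard error 0.220; DESeq2 adjusted p = 1.22e-140), and 0.190% of the genes tested rose more.

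Nupr1 (chr7:126623249-126630861, minus strand), a small stress-induced chromatin regulator, had 68.0, 62.0, 95.2 and 58.7 normalised counts in wildtype and 447, 580.4, 525 and 498 in knockout. Its log2 fold change was 2.85 (standard error 0.182; DESeq2 adjusted p = 1.44e-52). Chac1 (chr2:119351229-119354381, plus strand), an enzyme that breaks down glutathione, had 12.7, 23.2, 59.9 and 53.8 normalised counts in wildtype and 567, 933, 451 and 255 in knockout. Chac1 was the most variable of the 10 genes in both groups, the highest knockout library being 3.66 times the lowest, and its log2 fold change of 3.88 had the widest standard error, 0.599 (DESeq2 adjusted p = 1.61e-09).

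**Figure D2:**
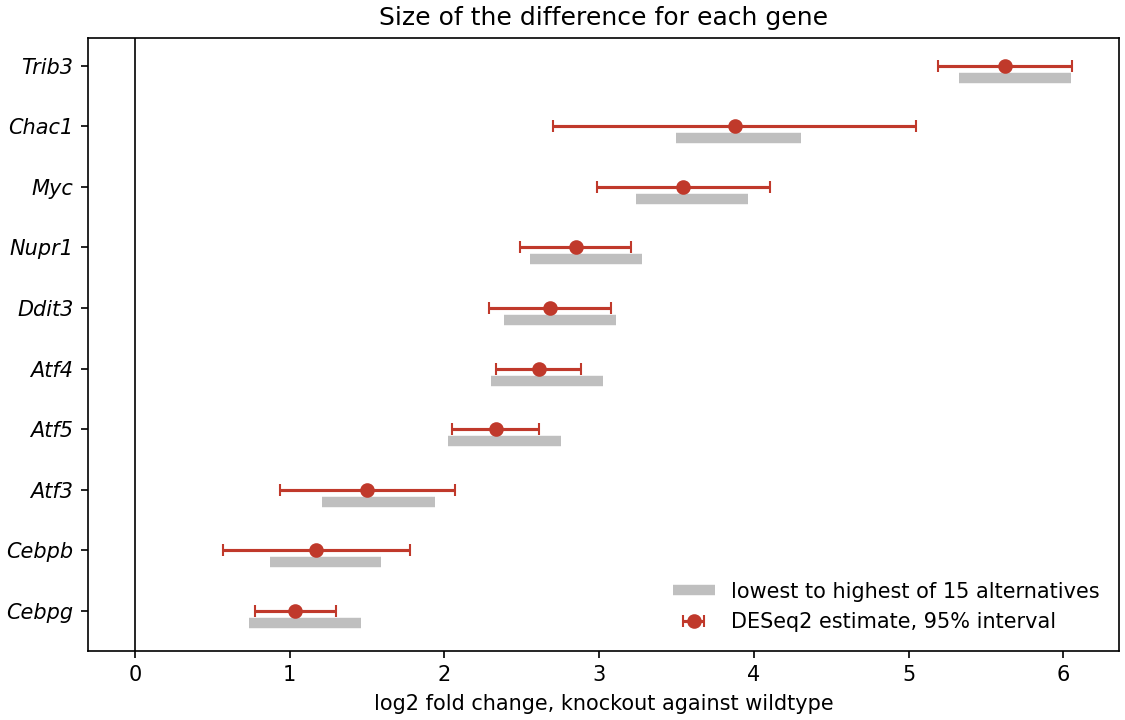
Log2 fold change, knockout against wildtype, of each gene with its 95% interval (red), and the lowest to highest value over 15 alternative fits (grey). Trib3 lies at 5.62 and Cebpg at 1.04, and no interval or grey bar reaches 0.

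The order of the knockout libraries was not shared by the 10 genes. Knockout replicate 3 was highest for 5 genes, replicate 2 for 3 and replicate 1 for 2, whereas replicate 4 was lowest for 5 and highest for none. Levels between genes were compared per transcript length, in TPM (transcripts scaled to a fixed total per library), within each group. In wildtype hearts Atf4 led with 17.7 ± 1.61 TPM, followed by Ddit3 at 6.83 ± 1.30 and Atf5 at 5.31 ± 0.675, whose ranges overlapped. Chac1, Trib3 and Myc were the lowest, at 0.698 ± 0.425, 0.450 ± 0.202 and 0.380 ± 0.123 TPM, with overlapping ranges. In knockout hearts Atf4 (97.4 ± 10.2), Ddit3 (39.8 ± 10.2) and Atf5 (24.2 ± 2.20) had the highest means and did not overlap with each other, but Atf5 overlapped with Nupr1. Trib3 ranked 9 of 10 in wildtype and 5 in knockout, at 19.3 ± 0.149 TPM, where its range overlapped with that of Nupr1 at 19.5 ± 2.77. Cebpg ranked 4 in wildtype and 7 in knockout, at 8.20 ± 1.25 TPM in the latter, where it overlapped with its neighbours Chac1 and Atf3, so that this rank was not resolved.

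The 10 genes were then set against Atf4 within each library, a measure that library scaling does not enter. The log2 ratio of counts to Atf4 was higher in knockout by 3.13 for Trib3, going from -5.23 ± 0.673 to -2.11 ± 0.130, and by 1.02 for Myc. It was lower by 1.77 for Cebpg, going from -0.97 ± 0.118 to -2.74 ± 0.403, by 1.32 for Cebpb and by 0.27 for Atf5. In these 5 genes the ratios of the groups did not overlap, and each had the smallest p that 4 against 4 libraries allow (exact two-sided permutation test, p = 0.0286). After Benjamini-Hochberg adjustment over the 9 ratios this became 0.0514, so no ratio passed 0.05. With TPM in place of counts 6 ratios passed (exact permutation test, adjusted p = 0.0429), Atf3 among them, and that of Myc turned to -0.56 with a pseudocount of 1 but stayed at 0.93 with a pseudocount of 0.01. The ratios of Ddit3 and Nupr1 differed by 0.10 and 0.23 (exact permutation test, adjusted p = 0.771 and 0.193), less than the SD of either group. Those of Atf3 and Chac1 differed by -1.02 and 1.34 with overlapping groups (exact permutation test, adjusted p = 0.129 and 0.147).

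**Figure D3:**
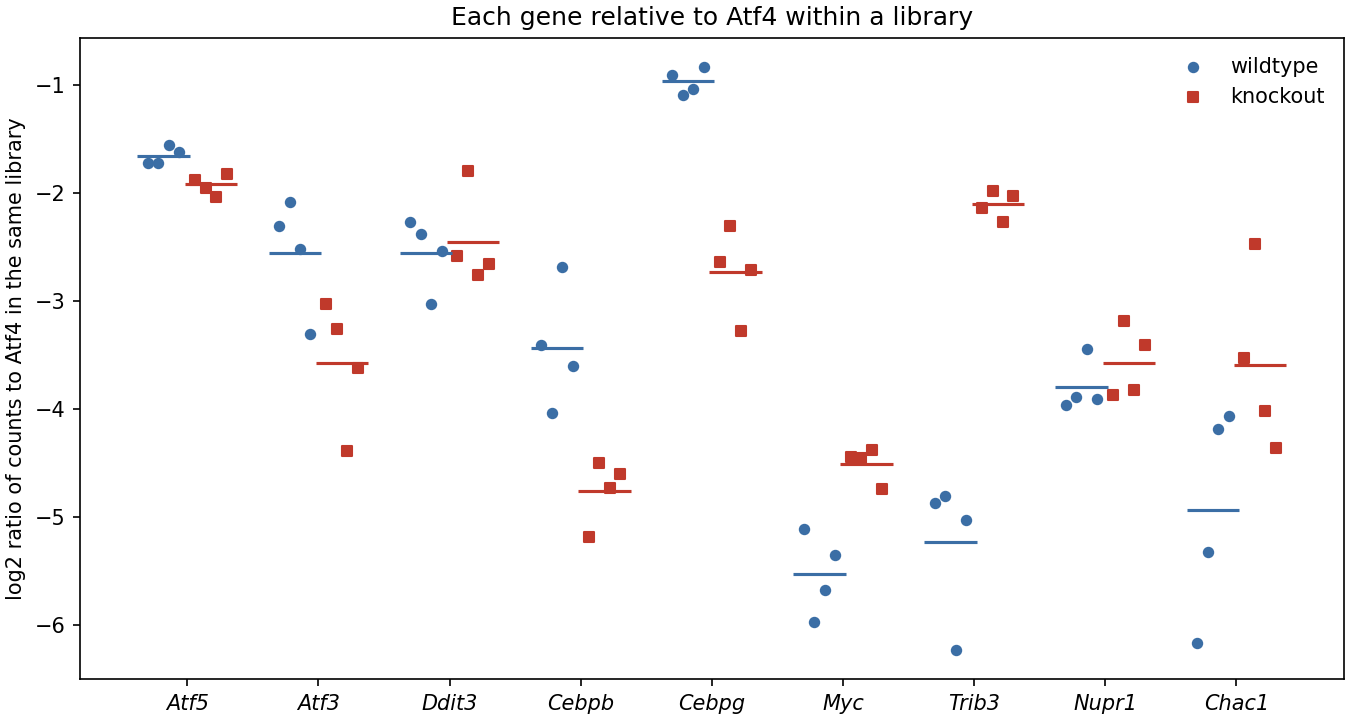
Log2 ratio of the count of each gene to that of Atf4 in the same library, in wildtype (blue circles) and knockout (red squares), with bars at the means. Trib3 and Myc lie higher in knockout and Cebpg, Cebpb and Atf5 lower, without overlap, while Ddit3 and Nupr1 overlap.

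For each of the 10 genes the 3 nearest profiles were taken among the 10437 other genes whose mean normalised count reached 100. Nearness was the root mean square difference over the 8 libraries in log2 count from the wildtype mean, and a small value means a like profile. Sars, a seryl-tRNA synthetase, was nearest to Atf4 at 0.0600 and was also among the 3 nearest to Ddit3 (0.325) and Nupr1 (0.272). Pck2, mitochondrial phosphoenolpyruvate carboxykinase, and Atp6v1h, a subunit of the vacuolar proton pump, followed Atf4 at 0.0833 and 0.0837. Fhl1, Nars and Slc19a2 were nearest to Atf5 (0.115 to 0.163), Nudt5, Rangap1 and Aen to Cebpg (0.0852 to 0.0995), and Hyal1, Cpm and Anapc15 to Cebpb (0.226 to 0.275). Fam129a came first for Ddit3 (0.217), and Slc1a4 (0.253) and Gars (0.275) stood beside Sars for Nupr1. Bcat1, Tubb2b and Sesn2 were nearest to Myc (0.381 to 0.401) and Synpo2l, Lmo2 and Plcd3 to Atf3 (0.329 to 0.350). For Trib3 (Mthfd2, Tfcp2l1 and Dlg2, 0.554 to 0.563) and Chac1 (Mthfd1l, Gm3776 and Hmox1, 0.751 to 0.810) the nearest genes were farther away. These are descriptions over 8 libraries in 2 groups, and any gene with a like fold change scores well.

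Genes listed as targets of ATF4 and CHOP rose nearly throughout, in a list chosen with earlier results of these data known. Of 54 tested, 48 were higher (88.9%, against 18.2% of all genes) and 2 lower (against 15.5%), with a median log2 fold change of 1.99 against 0.01 over all genes. Of the listed genes, all 7 of serine and one-carbon metabolism and all 5 of asparagine, proline and sulfur amino acid synthesis were called higher. So were all 9 amino acid transporters and all 12 aminoacyl-tRNA synthetases in the list. Adm2, a secreted peptide hormone, had at most 1.93 normalised counts in any wildtype library and 150 ± 22.2 in knockout, at least 54.6-fold higher against a floor of 3 counts per library. Gdf15, a circulating stress cytokine, had 12.2 ± 3.37 in wildtype and 1704 ± 650 in knockout. Fgf21, a secreted metabolic hormone, was at 0, 0, 0.867 and 3.21 normalised counts in wildtype and at 232, 120, 69.1 and 63.9 in knockout. The 2 lower genes were Bcl2l11, which encodes a pro-apoptotic protein (-0.91, standard error 0.217), and Vldlr, a lipoprotein receptor (-0.56, standard error 0.228). The call of Vldlr was lost without any 1 library other than knockout replicate 3 (DESeq2 adjusted p = 0.0783 to 0.140), and without that replicate its log2 fold change was -0.89. The 4 that did not pass were Ddit4, Vegfa, Tnfrsf10b and Map1lc3b.

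Of 40 other bZIP factors tested, 9 were higher, 1 lower and 30 did not pass, with a median of 0.21. This median was 0.07 without knockout replicate 2 and 0.02 with a replicate block. On total counts it was -0.09, and on totals less mitochondrial rRNA 0.63. The 22.5% called higher stood near the 18.2% of all genes. The small MAF proteins Maff and Mafk and the AP-1 partner Jdp2 rose by 1.70 (standard error 0.287), 1.63 (0.175) and 1.42 (0.233). Jun was the lower gene, at -0.72 (standard error 0.280), with 876, 976, 719.6 and 655 normalised counts in wildtype and 815, 474, 280.1 and 392.2 in knockout, which overlap. Its call was lost in 7 of 15 alternatives, among them edgeR and the fits without wildtype replicate 1, wildtype replicate 2, knockout replicate 2, knockout replicate 3 or knockout replicate 4 (DESeq2 adjusted p = 0.0554 to 0.123 in these 5). The number called was 15 by edgeR (10 higher), 16 without the length offset (11 higher), 15 on total counts (7 higher) and 21 once mitochondrial rRNA was taken out of the totals (21 higher).

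The genes of the eIF2 arm, which acts on translation, showed unequal differences. None of the 4 eIF2 kinases passed the test (log2 fold changes 0.10 to 0.29, DESeq2), and this depended on the scaling: on totals less mitochondrial rRNA all 4 were called higher (0.53 to 0.72), and on total counts all 4 were below 0 without a call (-0.19 to -0.002). Without knockout replicate 1, Eif2ak3 was called higher (0.45, DESeq2 adjusted p = 0.0473). The phosphatase subunit Ppp1r15a (GADD34), which returns eIF2 to its active state, rose by 1.69 (standard error 0.157). It is also listed among the ATF4 and CHOP targets and counted in both lists. Among the 9 genes of eIF2 and its exchange factor eIF2B 8 were higher, led by Eif2s2 at 1.56 (standard error 0.107) and Eif2b3 at 1.12 (standard error 0.174). Oma1 and Dele1, the protease and the messenger that relay mitochondrial stress to eIF2, were both lower in mRNA. Their log2 fold changes were -0.68 (standard error 0.190) and -0.87 (standard error 0.111). These mRNA values do not show the activity of the kinases or of this relay. On totals less mitochondrial rRNA the call of Oma1 was lost (-0.24, DESeq2 adjusted p = 0.358), and that of Dele1 was kept in all 15 alternatives. Dele1 had 2108, 2190.3, 2157 and 2205 normalised counts in wildtype and 1424, 1107, 1111 and 1103 in knockout, without overlap. Over the 18 genes of this arm, 10 were higher (55.6%, against 18.2% of all genes), 2 lower and 6 did not pass, with a median of 0.34. On total counts 5 were higher and 3 lower, and on totals less mitochondrial rRNA 16 were higher and 1 lower.

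The chaperone arm of the endoplasmic reticulum, driven by ATF6 and XBP1, did not move in a single direction. Of 21 genes tested 4 were higher, 4 lower and 13 did not pass, with a median of -0.07. The 19.0% called higher stood near the 18.2% of all genes. Dnajb9 (0.77, standard error 0.175), Derl1 (0.67, standard error 0.0924), Sel1l (0.62, standard error 0.121) and Edem1 (0.57, standard error 0.218), of protein folding and degradation, were higher. The lower genes were Hsp90b1, Hyou1, Calr and Manf. The call was kept in 9 of 15 alternatives for Edem1, 7 for Hsp90b1, 10 for Hyou1 and 14 each for Calr and Manf. These directions changed with the scaling: with total counts 3 were higher and 10 lower, and with totals less mitochondrial rRNA 11 were higher and 0 lower.

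The MYC network was described beside Myc itself. Of 24 MYC targets 17 were higher (70.8%, against 18.2% of all genes) and 0 lower, including Gnl3 of the nucleolus at 2.00 (standard error 0.191) and Srm, spermidine synthase, at 1.65 (standard error 0.211). Of 12 other genes, relatives of MYC and MAX or of their wider network, 2 were higher, 2 lower and 8 did not pass. Among them Mlxipl, which encodes the glucose-responsive factor ChREBP, was lower at -2.19 (standard error 0.347). Mycn was the other lower gene (-1.45, standard error 0.520), and Mycl (2.02, standard error 0.764) and Mxd4 (0.56, standard error 0.177) were the higher ones. The call of Mycn was kept in 10 of 15 alternatives and that of Mycl in 6 of 13, and that of Mxd4 was lost on total counts (0.26, DESeq2 adjusted p = 0.244). Over all 39 genes 19 were higher (48.7%) and 3 lower, with a median of 0.44. With total counts 13 were higher and 9 lower, and on totals less mitochondrial rRNA 29 were higher and 2 lower.

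Of the 24 immediate-early genes, which respond to stimulation or to handling of tissue, 5 were higher, 1 lower and 18 did not pass, with a median of 0.32. That median was -0.08 without knockout replicate 1, 0.01 on total counts and 0.75 on totals less mitochondrial rRNA. The 20.8% called higher stood near the 18.2% of all genes. Gadd45g, a stress sensor, rose by 1.86 (standard error 0.272), and Maff, which this list shares with the bZIP factors, by 1.70. Ccn1, a secreted matrix protein, rose by 0.82 (standard error 0.264) with overlapping groups, a call lost with total counts (0.52, DESeq2 adjusted p = 0.108). The other 2 higher genes were Gadd45b (0.53, standard error 0.213) and Klf6 (0.37, standard error 0.118), the call of Gadd45b being kept in 6 of 15 alternatives and that of Klf6 lost on total counts (0.08, DESeq2 adjusted p = 0.637), and Jun was the lower gene. Without knockout replicate 1, 13 genes of the list were called (7 higher), and without wildtype replicate 3, 10 were called (9 higher). On total counts 2 of 6 called genes were higher, on totals less mitochondrial rRNA 10 of 10, and by edgeR 5 of 5. Without knockout replicate 1 Atf3 was still called higher, as were the other 9 genes. The part of stimulation or handling in these values was not tested.

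**Figure D4:**
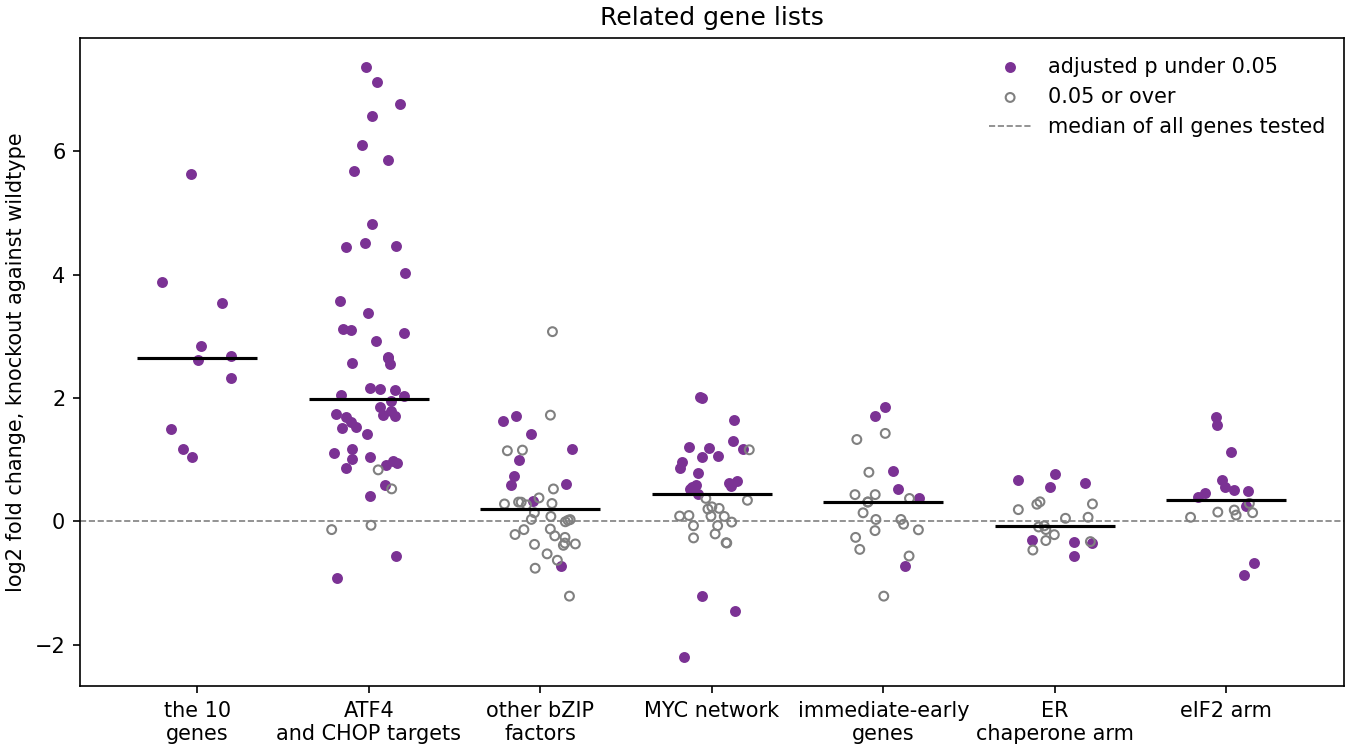
Log2 fold change, knockout against wildtype, of every tested gene in the related lists, filled where the adjusted p is under 0.05, with a bar at each list's median and a dashed line at the median of all genes. The ATF4 and CHOP targets have a median of 1.99, and the chaperone arm of the endoplasmic reticulum sits around 0.

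Other facts of the series touch these values. Total expected counts were 35218541 to 47743376 per library, of which mitochondrial rRNA took 44.0% to 46.9% in wildtype and 65.6% to 67.8% in knockout. Lrpprc itself fell from 3665 ± 216 to 577 ± 48.6 normalised counts (log2 fold change -2.67, standard error 0.100, DESeq2 adjusted p = 3.77e-153). The counts of cell type markers called stand against 18.2% higher and 15.5% lower of all genes. Among them 6 of 7 cardiomyocyte genes were lower, and their summed level was 991816 to 1105172 normalised counts in wildtype and 464014 to 608553 in knockout. Of 6 macrophage markers 5 were higher (summed 2526 to 3181 against 3188 to 6872), and of 6 neutrophil markers 5 were higher and Ly6g was at 0 in every library (62.4 to 124 against 134 to 697). Knockout replicates 2 and 4 held the highest macrophage and neutrophil sums. Replicate 2 was the highest library for Ddit3, Nupr1 and Chac1, and replicate 4 for none of the 10 genes. Of 6 fibroblast markers 3 were higher (12192 to 12630.1 against 15318 to 32575). Endothelial (0 of 6), lymphocyte (0 of 6), adipose (0 of 4 tested) and erythroid (0 of 4) markers gave no call, and 2 of 6 smooth muscle and pericyte markers were lower. Of 5 atrial markers 1 was higher, Nppa, from 12548 ± 239 to 41656 ± 5907 normalised counts. The 2 lower ones were Myl7 (3974 ± 550 to 341 ± 233) and Sln (979 ± 178 to 137 ± 61.5), and Myl4 and Bmp10 were not called. The part of these cell types in the values of the 10 genes was not tested. With total counts the median log2 fold change of the 15741 genes with a mean of at least 10 shifted to -0.28, and once mitochondrial rRNA was taken out of the totals to 0.44. Of all called genes 53.9% were higher in the main fit, 24.6% with total counts and 87.7% with totals less mitochondrial rRNA, while all 10 genes were called higher each time.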

How the data were processed

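RNA from 8 hearts, 4 per group by their labels, was examined. The authors aligned reads to the mouse transcriptome with RSEM 1.2.31 and Bowtie2, strand-specifically, and deposited expected counts and TPM per gene for each library; the submitters' processing notes name build mm10. TPM has a fixed sum over all records, mitochondrial rRNA included, so levels in TPM were compared within a group; between groups TPM entered only as an alternative for the ratios to Atf4. Expected counts were rounded and tested with DESeq2 1.42.0 in R 4.3.3, with the deposited effective lengths as an offset, genotype as the only term, and Benjamini-Hochberg adjustment over all genes. Gene symbols came from GENCODE M21, which named 50339 of 50563 Ensembl identifiers. Promoters are those of RefSeq. Both groups have 12-week-old mice, and each library is a separate mouse.

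The 10 genes and all lists were chosen with earlier results of these data known. Genes named are the 10, Lrpprc, per related list the 3 called genes with the largest absolute log2 fold change whose mean normalised count reached 10, and per gene the 3 nearest profiles; genes behind a count of 5 or fewer could also be named. The related lists are ATF4 and CHOP targets, other bZIP factors, MYC network, immediate-early genes, endoplasmic reticulum chaperones and the eIF2 arm, beside markers of 10 cell types. Some genes are counted in several lists. The other bZIP factors share Cebpd, Jdp2 and Nfe2l2 with the ATF4 and CHOP targets, and Xbp1 with the chaperones. They share Fos, Fosb, Jun, Junb and Maff with the immediate-early genes, and Ppp1r15a is both a target and in the eIF2 arm. Ratios to Atf4 used a pseudocount of 1. A deposited table of normalised counts, whose 8 columns match no label, and the authors' own fold changes and p-values were not used. Alternatives were edgeR 4.0.16 (TMM), no length offset, a filter of 10 counts in 4 libraries, 3 other scalings, a replicate block, and leaving out each library. The fitting was tested on simulated data. Replicate pairs of a group differed by more than sampling noise. Chi-square per degree of freedom was 4.65 to 10.0 in wildtype and 14.7 to 52.9 in knockout, where pairs with replicate 3 were the largest.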

Additional observations from a re-analysis of the deposited data

Results flagged for a closer look

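In 56 groups of 4 libraries screened, 3 had a library far from the other 3 by Dixon's criterion, where chance gives about 2.8. Atf5 had 375 normalised counts in wildtype replicate 3, against 294 to 300.1 in the other wildtype libraries, and its rise was called without that library too. Lrpprc had 504 normalised counts in knockout replicate 2, against 597 to 605 in the other knockout libraries. Eif2b3 had 519.9 normalised counts in knockout replicate 3, against 342 to 355.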

How the results depend on the processing

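All 10 genes were called higher and 0 lower under each of the 15 alternatives. Their lowest log2 fold changes came with total counts (Cebpg 0.74, Cebpb 0.87), except that of Chac1 (3.49, without knockout replicate 2), and their highest with total counts without mitochondrial rRNA (Trib3 6.05). With the replicate block all genes called fell from 6728 to 5525, and no call of the 10 genes changed. Same-numbered libraries did not deviate together (correlations -0.05 to 0.09), and 1 of 4 wildtype libraries correlated best with its own number. For the other bZIP factors 16 were called without the length offset and 21 with total counts without mitochondrial rRNA. For the chaperone arm 13 were called with total counts, and for the immediate-early genes 10 with total counts without mitochondrial rRNA; the cause was not tested. Leaving out 1 library gave 9 to 15 calls for the other bZIP factors, 5 to 10 for the chaperone arm and 4 to 13 for the immediate-early genes.

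With TPM in place of counts and the same pseudocount of 1, the ratios to Atf4 of Myc (-0.56, adjusted p = 0.0429), Ddit3 (-0.030) and Nupr1 (-0.016) turned sign, and those of Atf5 (-0.40), Atf3 (-1.27), Cebpb (-1.58), Cebpg (-1.64) and Trib3 (1.42) passed 0.05 by the exact permutation test. Myc, Trib3 and Chac1 lie under 1 TPM in wildtype on average, so adding 1 outweighs them. With a pseudocount of 0.01 TPM, chosen after seeing the data, Myc (0.93), Trib3 (3.05), Atf5 (-0.27), Atf3 (-1.09), Cebpb (-1.32) and Cebpg (-1.57) kept the sign of the main ratio and passed, with adjusted p = 0.0429 each by the exact permutation test. Leaving out 1 library gave ratios to Atf4 of -0.11 to 0.21 for Ddit3. With the replicate block the ratios kept their values, and exact sign flips over the 4 pairs cannot go below p = 0.125. The DESeq2 and edgeR p-values set a difference against the spread between these mice, and the permutation p-values against reassignments of the libraries.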
